A study of Drosophila melanogaster with 6 samples.

Results

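The plasmatocyte identity genes are 7 genes whose products mark or specify the macrophage-type blood cell of Drosophila melanogaster: srp, ush, Pxn, Hml, He, NimC1 and eater. They were taken by gene symbol from a table of 17830 genes, and all 7 were present, 1 row each. RNA was measured in S2 cells, a line derived from fly embryos whose cells resemble macrophages. Cells under RNA interference against the splicing helicase Brr2 (genotype labelled Brr2 knockdown, 3 libraries) were compared with control cells (genotype labelled WT, also under an RNA interference treatment, 3 libraries). The titles write both arms with sh, but the treatment protocol is for 8 μg of double-stranded RNA given for 30 min without serum, with the cells kept at 25 °C. The labels name neither the target of the control RNA nor the time until harvest. Separate cultures are not stated for the replicates, and the spread behind each p-value may therefore be technical.

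Plasmatocytes take up bacteria and dying cells, secrete matrix and make up most of the circulating blood cells of the fly. Their fate depends on the GATA factor Serpent (srp), which acts with the cofactor U-shaped (ush), a FOG protein. Serpent-dependent blood cells then express matrix and clotting proteins, such as peroxidasin (Pxn) and hemolectin (Hml), and surface proteins, such as Hemese (He) and the phagocytic receptors NimC1 and Eater of the Nimrod family.

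After Brr2 knockdown the set did not move as a block. Pxn fell to 14.9% of its control level, He rose 9.60-fold from a low level, and the regulators srp and ush stayed within their spread. Hml, NimC1 and eater did not pass the test. Thus 1 of the 7 genes was called higher and 1 lower (edgeR adjusted p under 0.05), and all 7 passed the filter on low values. Among all 11590 tested genes 17.7% were called, 8.05% higher and 9.63% lower (16.8% of all 14167 features with transposon copies), so 2 of 7 is not read as a feature of the set. The groups did not overlap for 4 of the 7 genes, 2 higher (He, NimC1) and 2 lower (Pxn, eater), as for 41.8% of all tested genes. The median log2 fold change was 0.02 over the 7 genes and -0.02 over all tested genes. In bulk RNA, fewer cells of a type and less RNA per cell cannot be told apart.

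Library totals were 127654975 to 147620403 estimated counts. Knockdown replicate 3 had 14926 genes above 0, against 12729 to 13455 in the other 5 libraries, and this is taken up where a low gene rests on it. Transposon copies held 35.7% to 36.7% of the counts in knockdown libraries and 19.4% to 23.6% in control libraries. With total counts as the only scaling, the median log2 fold change of genes shifted by -0.34 and the split of called genes was 573 higher and 2788 lower, against 933 and 1116 with TMM scaling. With upper quartile scaling the shift was 0.12 and the split 1227 higher and 809 lower. The Brr2 gene, listed as l(3)72Ab, was at 108.5, 94.0 and 99.8 CPM in knockdown libraries and 158.1, 198.5 and 221.1 CPM in control libraries (log2 -0.93, SE 0.16, edgeR adjusted p = 0.0111). Without the number 3 libraries of both groups it did not pass (adjusted p = 0.0675). Levels are estimated counts per 1000000 after TMM scaling (CPM), and log2 fold changes are knockdown over control.

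**Figure D1:**
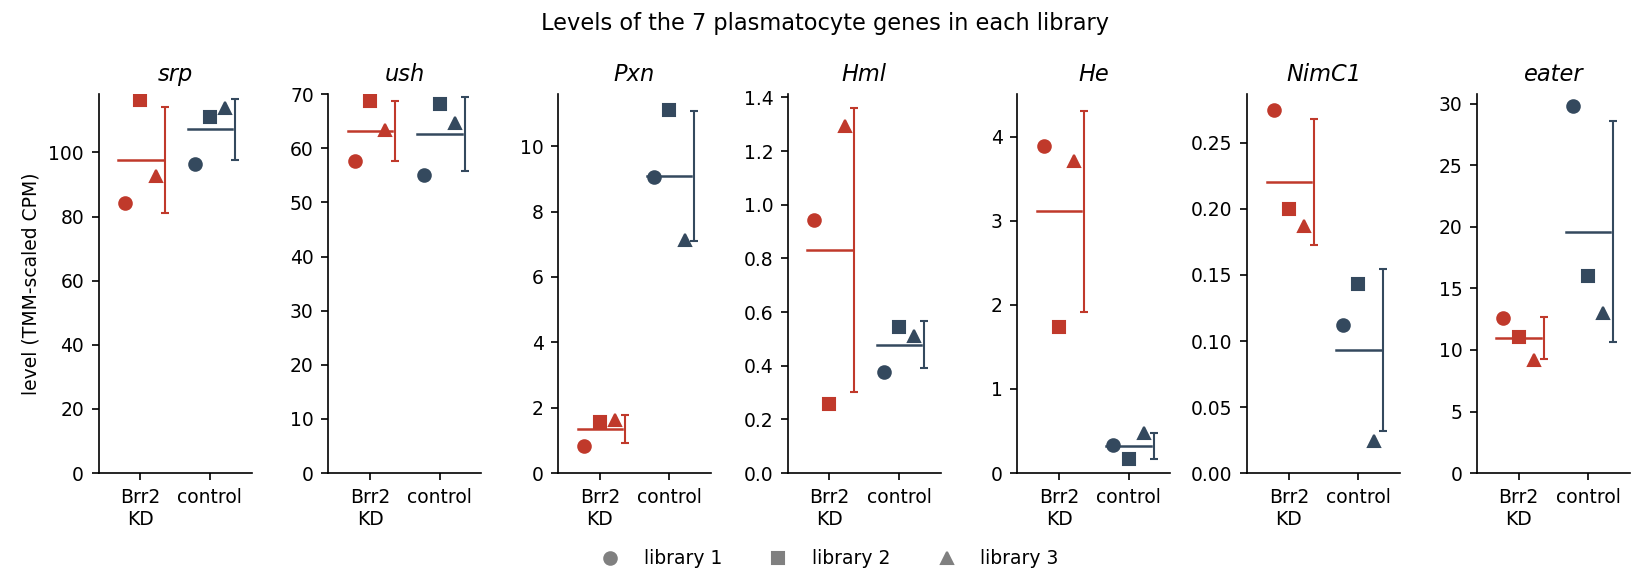
Level of each of the 7 genes (y axis, TMM-scaled CPM from 0, a separate scale per gene) in the 3 Brr2 knockdown libraries (red, left) and the 3 control libraries (dark blue, right). Horizontal lines are group means, bars are 1 SD, and marker shape gives the replicate number. Pxn lies at 0.843 to 1.64 CPM in knockdown and 7.14 to 11.1 CPM in control libraries, He at 1.73 to 3.89 and 0.165 to 0.473 CPM, and the groups of srp, ush and Hml overlap.

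The regulators come first. Serpent is encoded by srp (FBgn0003507; BDGP6.54, chromosome 3R, 15986152 to 16004085, plus strand, 7 annotated transcripts with 6 to 7 introns). Its level was 84.3, 116.2 and 92.6 CPM in knockdown libraries 1, 2 and 3, against 96.4, 111.1 and 114.0 CPM in control libraries 1, 2 and 3. The groups overlapped, and the highest single library was a knockdown library. On the log2 scale the fold change of srp was -0.13 (SE 0.15, edgeR adjusted p = 0.577), and no alternative setting or left-out library gave a call.

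U-shaped, which binds GATA factors and modulates their activity, is encoded by ush (FBgn0003963; chromosome 2L, 476220 to 540560, plus strand, 64341 bases long with 5 transcripts). It was at 57.7, 68.8 and 63.3 CPM in knockdown libraries and 55.0, 68.2 and 64.6 CPM in control libraries. Both groups covered nearly the same range, with a coefficient of variation of 8.79% in knockdown and 10.9% in control libraries. The log2 fold change was 0.02 (SE 0.13, adjusted p = 0.948). Its sign changed when only total counts were scaled (log2 -0.32, adjusted p = 0.217) and in 4 other settings, so no direction is given.

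Per library, ush stood at 0.595, 0.515 and 0.594 of the level of srp in knockdown libraries, both as CPM per kilobase of exon, and at 0.496, 0.533 and 0.493 in control libraries. The groups overlapped. The mean log2 ratio was higher by 0.16 in knockdown libraries (exact 2-sided permutation test, p = 0.2, and 0.2 after Benjamini-Hochberg adjustment over 2 ratios). For 3 against 3 libraries that test cannot go below 0.1.

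Both regulators overlap other annotated genes, and the labels do not say whether counting used strand. The antisense gene cbt lies within ush, shares no exon bases with it, and held 120.7 CPM in knockdown and 75.9 CPM in control libraries. The same-strand RNA genes lncRNA:CR46258 within ush and lncRNA:CR44133 within srp share 524 and 938 exon bases with them. lncRNA:CR46258 held 5.78 CPM in knockdown and 8.27 CPM in control libraries. lncRNA:CR44133 held 0.767 CPM in knockdown and 0.207 CPM in control libraries.

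Among the secreted proteins, Pxn encodes peroxidasin, an extracellular heme peroxidase that crosslinks collagen IV (FBgn0011828; chromosome 3L, 2601455 to 2630064, minus strand, 5 transcripts with 5 to 9 introns). Its estimated counts were 92, 196 and 219 in knockdown libraries and 1291, 1550 and 1162 in control libraries. As levels these were 0.843, 1.57 and 1.64 CPM in knockdown libraries, against 9.04, 11.1 and 7.14 CPM in control libraries. The highest knockdown library was below every control library, a separation in the lower direction that 21.7% of tested genes also had. Pxn fell by 2.75 on the log2 scale (SE 0.317, edgeR adjusted p = 0.00423). Pxn was called lower in all 16 alternative settings, with log2 fold changes of -3.06 to -2.51.

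The last 82 bases of Pxn are shared, on the opposite strand, with CG16986, which was at 6.66 CPM in knockdown and 7.14 CPM in control libraries. Beyond it, 1212 bases from Pxn, CG16985 was at 1.37, 2.61 and 2.62 CPM in knockdown libraries, against 5.83, 6.92 and 11.1 CPM in control libraries. CG16985 fell as well (log2 -1.85, SE 0.35, adjusted p = 0.0155). On the other side the nearest gene, 1650 bases away, is MEP-1, a zinc finger protein of chromatin complexes, at 115.3 ± 18.8 CPM in knockdown and 89.3 ± 15.1 CPM in control libraries (SD, n = 3 each), which did not pass (adjusted p = 0.184).

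Hml encodes hemolectin, a large secreted clotting protein and the source of a widely used blood cell driver (FBgn0029167; chromosome 3L, 13846054 to 13860001, plus strand, 25 introns). It was at 0.944, 0.256 and 1.29 CPM in knockdown libraries and 0.378, 0.544 and 0.510 CPM in control libraries, or 32 to 173 and 54 to 83 estimated counts. Knockdown library 2 was the lowest of all 6 and library 3 the highest, so the control values lay inside the knockdown range. The highest knockdown value was 5.06 times the lowest, against 1.44 times in control libraries. The log2 fold change was 0.80 (SE 0.568, adjusted p = 0.36). It was 0.32 without knockdown replicate 3, the library with most genes above 0, and 1.21 without knockdown replicate 2, and neither fit gave a call.

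Among the surface proteins, He encodes Hemese, a small glycosylated transmembrane protein that antibodies detect on blood cells (FBgn0028430; chromosome 2L, 13972096 to 13972947, minus strand, 852 bases with 1 intron). Its estimated counts were 424, 217 and 496 in knockdown libraries and 47, 23 and 77 in control libraries. The levels were 3.89, 1.73 and 3.71 CPM in knockdown libraries and 0.329, 0.165 and 0.473 CPM in control libraries. Every knockdown library was above every control library, a separation in the higher direction that 20.1% of tested genes also had. He rose by 3.26 on the log2 scale (SE 0.496, edgeR adjusted p = 0.00903). It was called higher in all 15 settings that tested it, with log2 fold changes of 2.89 to 3.66. Without the number 3 libraries of both groups it was 3.51 (adjusted p = 0.0467), and a filter of at least 5 CPM removed it.

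NimC1 encodes a phagocytosis receptor, the antigen of a plasmatocyte antibody, and lies 210 bases upstream of He on the same strand (FBgn0259896; chromosome 2L, 13973158 to 13976769, 1 intron). It held 30, 25 and 25 estimated counts in knockdown libraries and 16, 20 and 4 in control libraries, or 0.275, 0.200 and 0.187 CPM against 0.112, 0.143 and 0.0246 CPM. The groups did not overlap, but all 6 libraries were near the bottom of the measured range, at percentile 5.24 of tested genes per exon length in knockdown and 3.28 in control libraries. NimC1 did not pass (log2 1.24, SE 0.707, adjusted p = 0.259). Without control replicate 3, which held 4 estimated counts, the log2 fold change was 0.79, and without control replicate 2 it was 1.69.

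Eater, a receptor through which plasmatocytes bind and engulf bacteria, was measured at a higher level (FBgn0243514; chromosome 3R, 27095867 to 27099679, minus strand, 1 transcript with 3 introns). The level of eater was 12.6, 11.1 and 9.20 CPM in knockdown libraries and 29.8, 16.0 and 13.0 CPM in control libraries. The groups did not overlap, although knockdown library 1 and control library 3 were close, and control library 1 stood above all others. At log2 -0.84 (SE 0.312, edgeR adjusted p = 0.106) eater was short of the threshold. With the replicate number as a block eater was called lower (log2 -0.76, adjusted p = 0.0363). It was also called by DESeq2 (log2 -0.87, adjusted p = 0.0299) and with total counts only (log2 -1.14, adjusted p = 0.0211). Without control replicate 1 the log2 fold change was -0.39 (adjusted p = 0.25).

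Because srp, He and the others differ in exon length, their order was read from CPM per kilobase of exon. In knockdown libraries the order was srp (16.8 ± 2.84, SD, n = 3), ush (9.43 ± 0.829), He (4.62 ± 1.78), eater (3.32 ± 0.518), Pxn (0.226 ± 0.0738), Hml (0.0707 ± 0.0449) and NimC1 (0.0670 ± 0.0144). In control libraries it was srp (18.4 ± 1.61), ush (9.33 ± 1.02), eater (5.94 ± 2.71), Pxn (1.53 ± 0.333), He (0.479 ± 0.229), Hml (0.0406 ± 0.00745) and NimC1 (0.0283 ± 0.0187). Neighbours in this order overlapped between He and eater in knockdown libraries, between ush and eater in control libraries, and between Hml and NimC1 in both. He stood at percentile 49.7 of tested genes in knockdown and 24.1 in control libraries, and Pxn at percentile 15.2 in knockdown and 35.3 in control libraries. As a check of the blood cell label, srp and ush were above the median of tested genes in both groups, while Hml and NimC1 were at percentiles 5.50 and 5.24 in knockdown and 4.94 and 3.28 in control libraries.

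**Figure D2:**
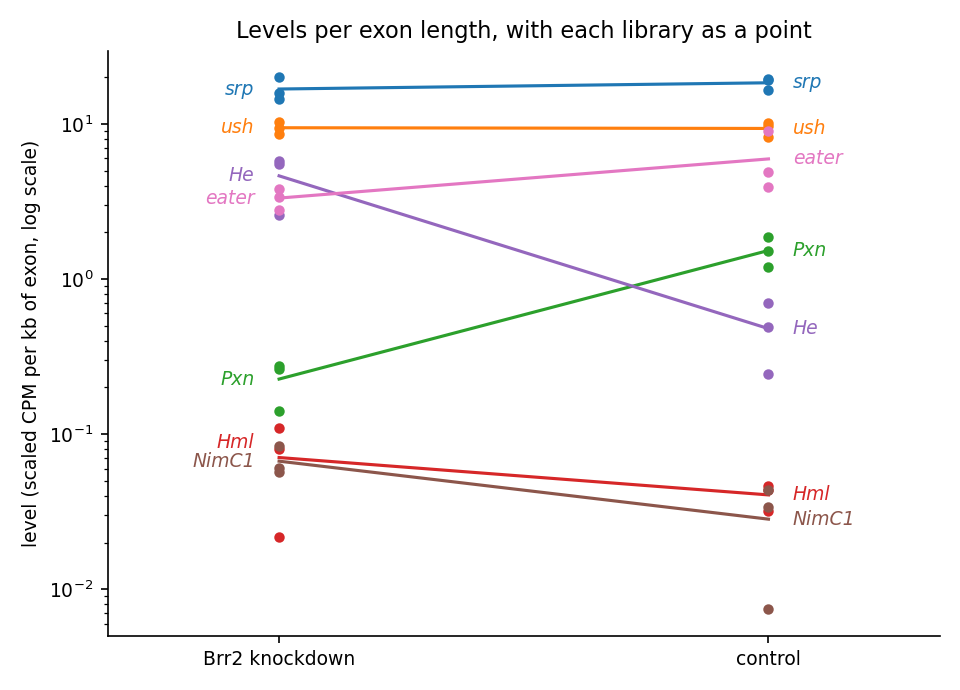
Level of each gene per exon length (y axis, scaled CPM per kilobase of exon, log scale) in Brr2 knockdown (left) and control libraries (right). Points are libraries and lines join group means. The lines of He and Pxn cross: He was at 4.62 in knockdown and 0.479 in control libraries, and Pxn at 0.226 and 1.53.

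The changes of He and Pxn made their ratio differ most between groups among the 3 ratios computed. As CPM per kilobase of exon, He was at 40.8, 9.80 and 20.0 times Pxn in knockdown libraries and at 0.322, 0.131 and 0.586 times Pxn in control libraries. This pair was chosen with its difference known and is given without a test. NimC1 per eater was 0.0219, 0.0181 and 0.0204 in knockdown libraries and 0.00377, 0.00895 and 0.00190 in control libraries, with no overlap. The mean log2 ratio of NimC1 to eater was higher by 2.32 in knockdown libraries (exact 2-sided permutation test, p = 0.1, the smallest that 3 against 3 allows, and 0.2 after adjustment over 2 ratios), and it rests on the few NimC1 counts.

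He and NimC1 lie in the Nimrod gene cluster of chromosome 2L, and their neighbours there were read for the same comparison. NimB5, a secreted Nimrod protein encoded on the opposite strand, shares its last 78 bases with the end of He. NimB5 held 83, 77 and 100 estimated counts in knockdown libraries and 16, 12 and 16 in control libraries, and rose by 2.83 on the log2 scale (SE 0.381, edgeR adjusted p = 0.00654). What the shared bases add to either gene was not tested. NimB2, at 0.405 ± 0.122 CPM in knockdown and 0.108 ± 0.0613 CPM in control libraries (SD, n = 3 each), did not pass (log2 1.90, adjusted p = 0.0626). NimB4, which lies 2119 bases beyond the end of He, was listed at 0 in 5 of 6 libraries, and NimB3 in all 6. Cyp28a5, the next gene beyond NimC1, had a log2 fold change of 1.21 and did not pass (adjusted p = 0.511).

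**Figure D3:**
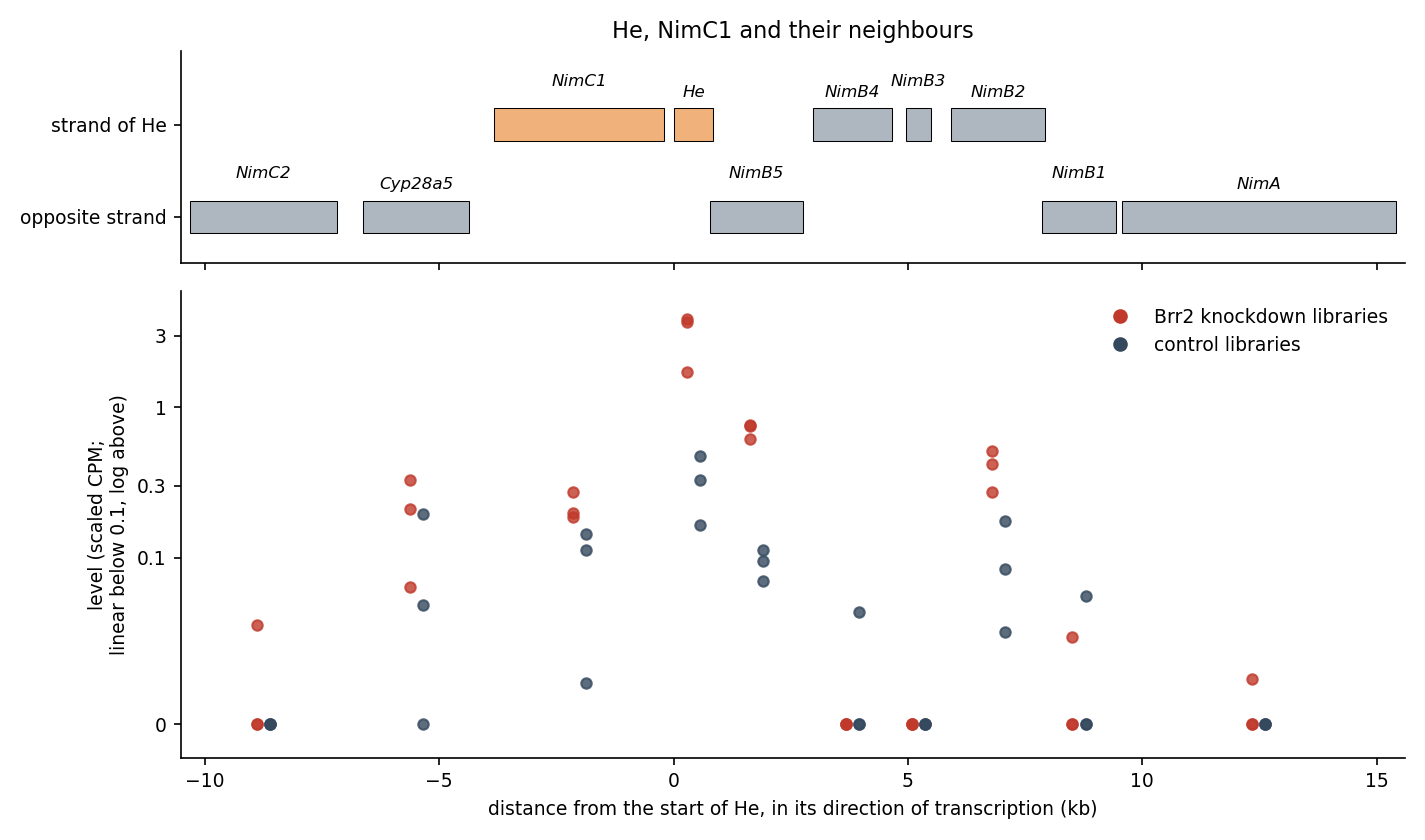
Genes around He on chromosome 2L by distance from the start of He in its direction of transcription (x axis, kilobases). Boxes in the upper panel are annotated genes, by strand, with He and NimC1 in orange; points in the lower panel are the level in each Brr2 knockdown library (red, left of each pair) and control library (dark blue), drawn at the middle of the gene (y axis, scaled CPM, linear below 0.1 and logarithmic above). He and NimB5 have all knockdown libraries well above the control libraries, while NimB3, NimB4, NimB1 and NimA are at or near 0.

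The tested genes that flank srp, ush and eater did not pass. Beside srp, Hel89B had a log2 fold change of -0.07 (edgeR adjusted p = 0.778), and beside ush, MED15 and lwr had -0.15 and -0.16 (0.469 and 0.493). Beside eater, CG14259 lies 10 bases away with -0.26 (0.798) and Jhbp11 1550 bases away with -0.52 (0.575). Both genes that flank Hml were below the filter.

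Of the 10 Nimrod genes besides NimC1 and eater, 4 passed the filter. Of these, 1 rose (NimB5) and 1 fell, against 8.05% higher and 9.63% lower among all tested genes. The one that fell was drpr, Draper, the receptor for engulfment of dying cells, at 92.9 ± 13.6 CPM in knockdown and 151.9 ± 12.7 CPM in control libraries (log2 -0.71, SE 0.149, adjusted p = 0.0213). The drpr call did not hold in 4 of the 6 fits that omit a library, those without control 1, control 2, knockdown 1 and knockdown 3 (adjusted p from 0.0626 up to 0.0749), nor without both number 3 libraries (0.0659).

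Other genes that plasmatocytes express were set beside the 7. Of 13 listed genes 11 passed the filter (NimC2 and NimC3 did not), 3 fell and 0 rose. Among all tested genes 9.63% were called lower and 8.05% higher. The median log2 fold change was -1.02 over these 11 genes, against -0.02 over all tested genes. Pvr, the receptor for PDGF- and VEGF-type ligands that blood cells need for survival and migration, was at 412.8, 720.8 and 557.2 CPM in knockdown libraries and 1347, 1384 and 1443 CPM in control libraries (log2 -1.30, SE 0.209, edgeR adjusted p = 0.0103). Ppn, papilin of the basement membrane, was at 91.9 ± 54.5 CPM in knockdown and 323.4 ± 61.9 CPM in control libraries (log2 -1.82, adjusted p = 0.0256), and drpr was the third. The collagen IV genes vkg and Col4a1 did not pass, with log2 fold changes of -0.88 and -1.02 (adjusted p of 0.116 and 0.0804), nor did the scavenger receptor crq (log2 -0.34, adjusted p = 0.324). Of the 11 tested, 10 had a fold change below 0 and Sr-CI, at 0.591 CPM or less in group mean, had one above 0. The list was chosen with earlier results of these data known, so these counts are given as a description only.

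Settings moved the number of these genes called lower. With total counts only 8 of the 11 were lower and 0 higher, and with no filter 2 of 13 were lower. With the replicate number as a block 7 of these 11 were lower, vkg, Col4a1, SPARC and Tig being added (adjusted p of 0.0106 to 0.0423). Without the number 3 libraries of both groups 0 passed in edgeR (Pvr then had adjusted p = 0.0678), while 7 had an unadjusted p under 0.05 with all libraries, DESeq2 called 7 and limma voom 4. With 1 library left out the number called lower was 6 without knockdown 2, 3 without control 3, and 1 in each of the other 4 fits. In those 4 fits Ppn did not pass (adjusted p from 0.0614 up to 0.086). The settings also moved the number of all genes called lower. It was 2788 of 11590 with total counts only, 660 of 16153 with no filter and 1655 of 11590 with the block. DESeq2 called 1786 of 16153 genes lower, limma voom 1157 of 11590, and the fit without knockdown 2 1115 of 12175.

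Among 12 other GATA and blood cell transcription factors, 7 passed the filter. Of these, 1 fell and 0 rose, against 9.63% lower and 8.05% higher among all tested genes. The gene that fell was jumu, a forkhead factor, at 28.4, 55.4 and 41.9 CPM in knockdown libraries and 74.1, 77.4 and 104.5 CPM in control libraries (log2 -1.03, SE 0.258, adjusted p = 0.0367). Of the 6 fits that omit a library, jumu passed in the one without knockdown 2 only (in the others, adjusted p from 0.0775 up to 0.103). The GATA gene pnr was at 118.2 ± 6.42 CPM in knockdown and 141.1 ± 3.83 CPM in control libraries and did not pass (adjusted p = 0.148), and zfh1, a zinc finger homeodomain factor, was at 208.1 ± 33.6 and 222.7 ± 31.2 CPM (adjusted p = 0.715). The GATA gene grn and the plasmatocyte fate gene gcm, with gcm2, kn and tup, were below the filter. DESeq2, run without that filter, called gcm2 higher (log2 6.82, adjusted p = 0.0251). That gene held 9, 0 and 46 estimated counts in knockdown libraries 1, 2 and 3 and 0 in all control libraries, so the call rests mostly on knockdown library 3.

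The listed partners of U-shaped in repression were the corepressor CtBP and subunits of the NuRD and MEP-1 complexes. Of these 8, simj rose and 0 fell in the reported test, against 8.05% higher and 9.63% lower among all tested genes. The groups did not overlap for 1 of the 8 in the higher direction and 3 in the lower, against 20.1% and 21.7% of tested genes. Simjang, a p66-type NuRD subunit, was at 39.5, 37.7 and 34.8 CPM in knockdown libraries and 27.7, 27.2 and 26.0 CPM in control libraries (log2 0.47, SE 0.108, edgeR adjusted p = 0.0289). Of the 6 fits that omit a library, simj passed in the one without control 3 only (in the others, adjusted p from 0.0673 up to 0.112), and it did not pass with total counts only (log2 0.13, adjusted p = 0.487). The deacetylase HDAC1 was at 34.2 ± 10.5 CPM in knockdown and 63.4 ± 12.9 CPM in control libraries and did not pass (log2 -0.89, adjusted p = 0.0521). With the replicate block HDAC1 and Caf1-55 were called lower (adjusted p of 0.0267 and 0.0426). DESeq2 also called both lower (adjusted p of 0.0048 and 0.0493), and limma voom called HDAC1 lower (adjusted p = 0.0447). With total counts only 3 of the 8 were lower and 0 higher, while 2788 of all 11590 genes were lower.

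**Figure D4:**
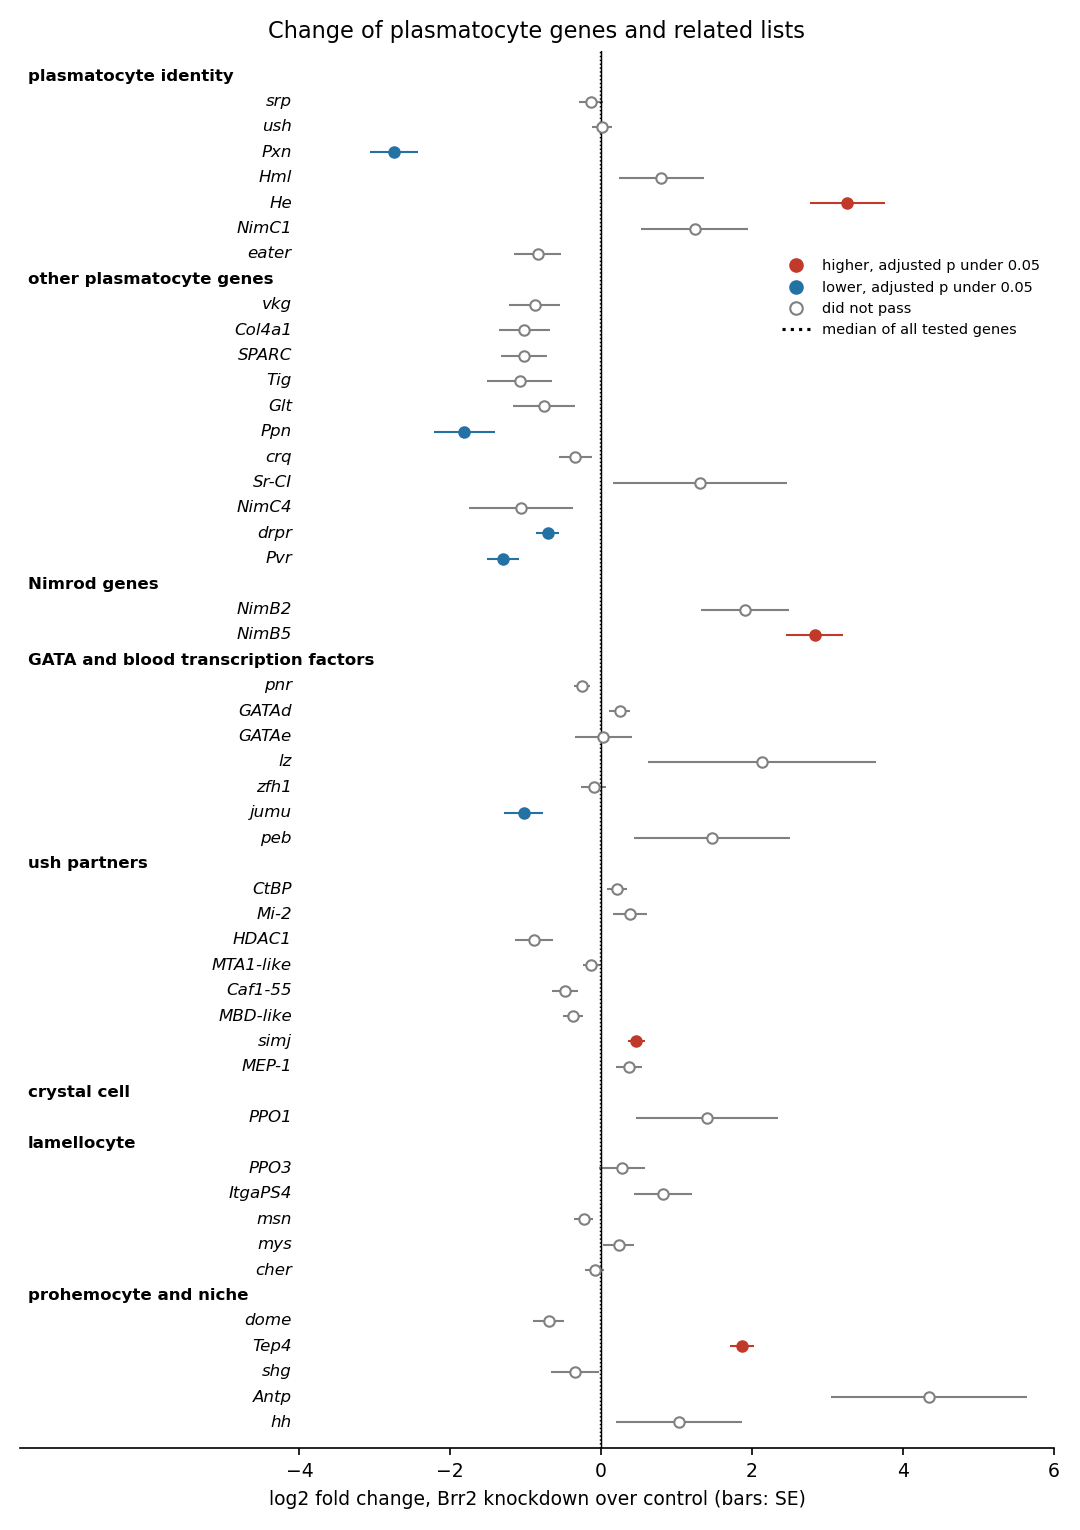
Log2 fold change of Brr2 knockdown over control (x axis, bars are 1 SE) for the 7 genes and the tested members of 7 other lists, a gene of several lists being drawn once, under the first. Filled points passed an edgeR adjusted p of 0.05 (red higher, blue lower), open points did not, and the dotted line is the median of all tested genes, -0.02. Among the 7 genes at the top, Pxn and He are filled, and in the next list 10 of 11 points lie left of 0.

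Markers of other cell types were set beside the 7 genes, those of other blood cell classes first. Of 4 crystal cell genes 3 were tested (PPO2 was below the filter) and 0 passed in edgeR, DESeq2 or limma voom, with 0 at an unadjusted p under 0.05, and their summed level was 2.91, 0.887 and 7.49 CPM in knockdown libraries and 0.974, 0.573 and 1.90 CPM in control libraries. Of these PPO1, a prophenoloxidase, was called higher with the replicate block (log2 1.51, adjusted p = 0.0309). Of 6 lamellocyte genes 5 were tested and 0 passed by edgeR, DESeq2 or limma voom, or at an unadjusted p under 0.05. The lamellocyte antigen gene atilla was at 18, 0 and 5 estimated counts in knockdown libraries and at 0 in all control libraries. Of 6 prohemocyte and niche genes 5 were tested and 1 rose, Tep4, a thioester protein gene used as a prohemocyte marker, at 550.3, 469.0 and 439.6 CPM in knockdown libraries and 149.2, 136.7 and 114.5 CPM in control libraries (log2 1.87, SE 0.159, edgeR adjusted p = 0.00239). In the reported test 8.05% of all tested genes were called higher. DESeq2, limma voom and the fit with the block each called 3 of the 6 prohemocyte and niche genes. These were 2 higher and 1 lower, adding Antp and dome. Of all genes they called 3099 of 16153, 2120 of 11590 and 2966 of 11590, in that order. Antp held 53, 22 and 93 estimated counts in knockdown and 0, 0 and 10 in control libraries (adjusted p = 0.00403 by DESeq2, 0.0463 by limma voom and 0.0295 with the block). dome was lower (log2 -0.72 with the block, adjusted p = 0.0124, 0.0496 and 0.0153 in the same order), and neither passed in edgeR without the block (0.0591 for Antp and 0.0586 for dome). Whether these genes play a part in the changes of He and Pxn was not tested.

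Outside the blood lineage, all 4 fat body markers were below the filter, with a summed level of 0.0479 to 0.853 CPM in knockdown and 0.0560 to 0.178 CPM in control libraries. The 4 neuron markers summed to 40.9 to 45.8 CPM in knockdown and 38.2 to 49.4 CPM in control libraries, mostly elav and brp. Of the 3 tested, 0 passed (1 at an unadjusted p under 0.05, 0 by DESeq2 or limma voom). The 4 muscle markers summed to 3.13 to 3.99 CPM in knockdown and 3.80 to 10.4 CPM in control libraries, with 0 of 4 passing in edgeR (1 at an unadjusted p under 0.05, 1 by DESeq2, 0 by limma voom) and bt called lower with the block (adjusted p = 0.0432). Of the 4 germline markers 1 rose, against 8.05% of all tested genes. It was aub, at 90.7, 51.0 and 51.0 CPM in knockdown libraries and 25.7, 11.3 and 10.1 CPM in control libraries (log2 2.03, edgeR adjusted p = 0.0191). The call of aub did not hold without knockdown 1 (0.0671), control 2 (0.0755) or both number 3 libraries (0.0688). The markers vas, nos and bam, at 0.497 CPM or less in group mean, did not pass. Their log2 fold changes were -0.22, 1.19 and 1.39 (adjusted p of 0.93, 0.512 and 0.484).

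For each of the 7 genes, the genes with the most similar profile over the 6 libraries were found by the root mean square distance between centred log2 levels, among the 6540 or 6541 other genes averaging 5 CPM or more. Nearest to Pxn were Ser, a Notch ligand gene (distance 0.252), and CG33054 (0.271), both of which fell. Nearest to He were CG18547 (0.321) and Pask, a PAS kinase gene (0.365), both of which rose. Because the distance includes the difference between groups, these shared directions follow from the search itself. CG18547 was at 18.0 ± 6.80 CPM in knockdown and 2.07 ± 1.49 CPM in control libraries, and Pask at 8.82 ± 2.58 and 1.47 ± 0.726 CPM (SD, n = 3 each). For srp these were l(3)mbt (0.0237) and Rnp4F (0.0274), for ush S (0.0362) and CG2186 (0.0406), and for eater CG42558 (0.122) and CG8046 (0.122). For Hml and NimC1 no gene came closer than 0.401 (Oda) and 0.423 (sprt), with Gadd45 (0.431) and Gpo1 (0.433) next.

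**Figure D5:**
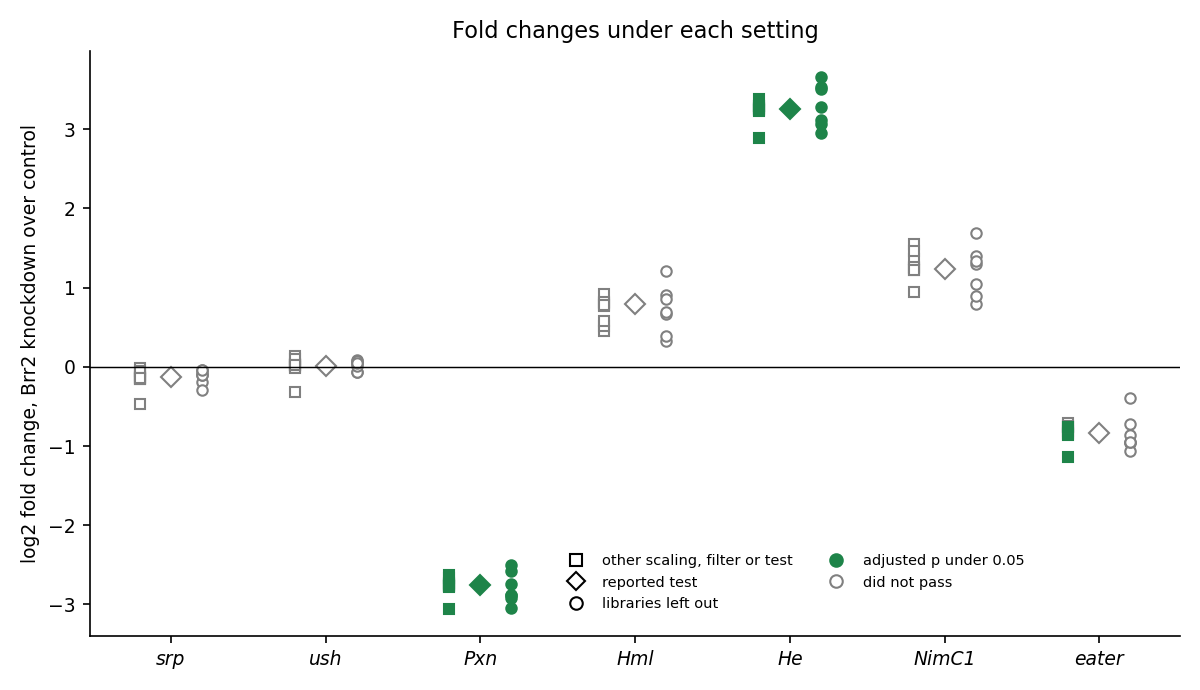
Log2 fold change of Brr2 knockdown over control (y axis) of each of the 7 genes under the reported test (diamonds), other scalings, filters and tests (squares) and with libraries left out (circles). Green marks an adjusted p under 0.05. Pxn stays between -3.06 and -2.51 and He between 2.89 and 3.66, all green; eater is green in 3 squares, and ush lies on both sides of 0.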

How the data were processed

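Total RNA depleted of ribosomal RNA was sequenced from 6 S2 cell libraries. The authors deposited estimated counts per gene and transposon copy, as whole numbers with unequal library totals. The submitters' processing notes list Trimmomatic, TopHat2 and the BDGP6 build. Which tool counted, and how it treated strand and multiple hits, is not given in the sources used. Since an estimated count need not be a number of reads, no counting interval is given, and the spread between libraries sets the precision. Totals were 127654975 to 147620403.

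The test was edgeR's quasi-likelihood F test (version 4.0.16, R 4.3.3, TMM scaling, filterByExpr, no block) over 14167 features, 11590 of them genes, with Benjamini-Hochberg adjustment and a threshold of 0.05; the script was tested on simulated data. CPM are counts per 1000000 of the TMM-scaled total. The SE of a log2 fold change is its size divided by the root of its F statistic. Positions and exon lengths (union over transcripts, 11539 tested genes) came from the Ensembl release 115 annotation of BDGP6.54, while the notes name no release; 17751 of 17830 gene identifiers matched. Alternatives were other scalings, genes only, other filters, DESeq2 1.42.0, limma 3.58.1 (voom), the replicate number as a block, and each library omitted in turn. Leaving out both number 3 libraries was added after seeing the data.

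Members and lists were chosen with earlier results of these data known. Named were all 7 members, the Brr2 gene, up to 4 called genes per list, list genes below the filter, 2 nearest profiles per member and flanking genes. Other list genes, such as HDAC1, pnr and vkg, and CG16986, cbt and other overlapping genes were named after their values were seen. Between replicates of a group, chi-square divided by its degrees of freedom was 103.3 to 1442. That value treats estimated counts as numbers of reads, which they need not be.

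Groups share replicate numbers in the titles, which state no pairing. Deviations from group means correlated at 0.16 to 0.317 between libraries of the same number and -0.229 to 0.0506 otherwise. Every same-number pair was thus above 0.1, the level set for treating the numbers as pairs, on the data alone. The reported test still has no block, because the titles state no pairing. With the block 3 of the 7 members and 3456 features were called, against 2 and 2385 without it. Elsewhere the blocked fit is printed only beside calls that it alters. No member sequences are printed, since no sequence table was used here.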

Additional observations from a re-analysis of the deposited data

How the results depend on the processing

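The number of features called was 2385. It was 3868 with total counts only, 1470 with no filter, 3631 with DESeq2, 660 without both number 3 libraries, and 761 to 2250 with 1 library left out. Of the 7 genes 2 were called, and 2 with any 1 library left out (2 to 2). With a minimum of 5 CPM 1 was called, because He, Hml and NimC1 were then not tested. In all 15 or 16 settings that tested them, the calls of Pxn and He and the lack of a call for srp, Hml and NimC1 held. With 1 library left out the log2 fold change ranged over -0.29 to -0.04 for srp, -2.91 to -2.51 for Pxn, 0.32 to 1.21 for Hml, 2.95 to 3.66 for He, 0.79 to 1.69 for NimC1 and -1.06 to -0.39 for eater. The value of ush changed sign, to -0.32 with total counts only, -0.0034 with no filter and -0.0096 with DESeq2, and lay between -0.064 and 0.083 with 1 library left out. The call of eater was gained with total counts only (-1.14), DESeq2 (-0.87) and the replicate block (-0.76). The call of Brr2 was lost without both number 3 libraries (-0.81) and held with 1 library left out (-1.05 to -0.81). Causes of these shifts were not tested. With the replicate block for the pairing, 3456 features were called, and among the members eater alone changed its call; in the other lists 10 genes gained a call (HDAC1, Caf1-55, vkg, Col4a1, SPARC, Tig, PPO1, dome, Antp and bt), and it changed no other call. The block difference of log2 ratios was 0.16 for ush to srp, 2.32 for NimC1 to eater and 6.10 for He to Pxn (smallest p allowed 0.25). With 1 library left out these differences were 0.13 to 0.23, 1.79 to 2.90 and 5.52 to 6.62, and with 0.5 CPM added to each gene they were 0.16, 1.02 and 4.47. In the other lists DESeq2 called 2 transcription factors (1 higher), 3 partners of U-shaped (1 higher) and 3 Nimrod genes (2 higher). Total counts only called 1 gene lower in each of the lamellocyte, neuron and muscle lists. Of all genes, DESeq2 called 1313 higher and 1786 lower of 16153, and total counts only 573 higher and 2788 lower of 11590. Depth limits NimC1 most, at 4 to 30 estimated counts.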

Other observations

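Of the 32 listed markers of other cell types, 8 had their highest CPM in library 3 of both groups (lz, peb, shg, Antp, Lsp1alpha, Lsp2, Syt1 and bam). The same held for 5 markers in library 1 and for 3 in library 2. The share of all genes with this pattern was not counted, so it is not read as a trait of the markers. Library 3 also had the most genes above 0 within each group, 14926 in knockdown and 13455 in control. The gene lz, which encodes the Runx factor of crystal cells, held 27, 21 and 719 estimated counts in knockdown libraries 1, 2 and 3 and 4, 38 and 165 in control libraries 1, 2 and 3. The zinc finger gene peb held 42, 34 and 221 in knockdown libraries and 6, 21 and 104 in control libraries, and the synaptic gene Syt1 21, 40 and 292 in knockdown libraries and 22, 16 and 89 in control libraries. Neither lz, peb nor Syt1 passed the edgeR test (adjusted p of 0.359, 0.357 and 0.276). These genes were chosen after their values were seen.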
